A study of Homo sapiens with 18 samples.

Results

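The estrogen receptor axis was followed across 6 human ovarian cancer cell lines through 9 genes chosen by name: the receptor genes ESR1, PGR and NR3C1, the estrogen receptor target genes GREB1 and XBP1, the receptor partners FOXA1 and NR2F2, the coactivator NCOA3 and the progesterone receptor membrane component PGRMC1. The choice was made by symbol, and 8 of the 9 were found among the 12853 genes measured. PGR was not analysed here. RNA depleted of ribosomal RNA was sequenced in 3 libraries of each line, 18 in all, without any hormone or drug treatment named in the labels for these libraries. All lines grew in RPMI-1640 with glutamine and fetal bovine serum.

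The lines form 3 pairs of a platinum-sensitive line and a platinum-resistant counterpart. A2780, which the labels give as an endometrial/ovarian cancer line, is paired with CP70, a resistant derivative selected in vitro. The PEA lines derive from ascites of 1 patient with high-grade serous ovarian cancer: PEA1 was taken when no platinum had yet been given, PEA2 once the disease had come back and no longer responded. PEO1 and PEO4 derive from another patient with that disease who had already received platinum, and only PEO4 was taken when the tumour no longer responded. Each pair is therefore a single derivation, and a difference within it belongs to those lines. Nothing in the labels says that the libraries of a line came from separate cultures, so p-values measure the spread between these libraries only.

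Estrogen receptor alpha, encoded by ESR1, is a nuclear receptor that binds estradiol and then DNA, where it recruits coactivators such as NCOA3 and switches on genes that include PGR and GREB1. FOXA1 opens chromatin for the receptor in breast epithelium, and the glucocorticoid receptor, encoded by NR3C1, binds related DNA elements as the receptor for cortisol. Many high-grade serous ovarian tumours carry estrogen receptor alpha.

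Values were deposited as log2 CPM (library-scaled read counts) with 0.5 reads added to each count, without division by gene length, so levels are compared between lines and not between genes. Reads on the measured genes ranged from 1344098 to 7067336 per library, and 3 reads, taken as the detection floor, amounted to 0.452 to 2.18 CPM. PEA1 was the shallowest line, with 1344098, 1354726 and 1670866 reads. Of 11 carcinoma marker genes, 9 stayed at or below 3 reads in every A2780 library and 7 in every CP70 library, among them PAX8 and WT1 in both. Their summed level was 2.68 to 3.35 CPM in A2780, 90.8 to 96.7 in CP70, 435 to 590 in PEA1, 3100 to 3460 in PEA2, 6710 to 7770 in PEO1 and 4940 to 6520 in PEO4. KRT7, CLDN3, CLDN4 and MSLN stayed at or below 3 reads in every PEA1 library.

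ESR1 (ENSG00000091831, GRCh37 chr6:151977826-152450754, plus strand) separated the PEO pair from the other lines. PEO1 held 690, 637 and 1550 ESR1 reads, at log2 CPM of 7.82, 7.83 and 7.87. PEO4 held 730, 882 and 625 reads, at 7.98, 8.20 and 7.99. The ranges of PEO1 and PEO4 lay side by side without overlap, with every PEO4 library above every PEO1 library. A2780 held 1, 0 and 0 ESR1 reads, while CP70 and PEA1 held 0 reads in all libraries. A count of 0 allows up to the level of 3 reads, so ESR1 RNA was not detectable at this depth in CP70 and PEA1. PEA2 stood between these groups with 3, 19 and 13 reads, at 0.90, 2.49 and 2.63. In bulk RNA, a small share of cells that express a gene and little RNA in every cell cannot be told apart.

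In the PEO pair, ESR1 had a log2FC of 0.22 (SE 0.44), resistant minus sensitive, which did not pass an FDR of 0.05 (FDR = 0.732, limma with Benjamini-Hochberg adjustment over all 12853 genes). The fit estimates 1 spread per gene over all lines, and the SD of ESR1 was 0.03 in PEO1 and 0.13 in PEO4 beside 0.85 in A2780 and 0.96 in PEA2 (log2 CPM, n = 3). With the 6 libraries of the PEO pair fitted alone the FDR was 0.0415 at the same log2FC. ESR1 rose in the PEA pair by 3.59 on the log2 scale (SE 0.44, FDR = 7.36e-07). Against a PEA1 level of 3 reads, the rise in PEA2 was at least 2.15-fold, and the fitted value of 3.59 depends on the reads added to the zeros of PEA1. Without PEA2 replicate 1, the lowest PEA2 library, the log2FC was 4.14. Both lines of the A2780 pair were at or below 3 reads in every library and no fold is given; the test gave an FDR of 0.0586, or 0.0127 without A2780 replicate 2 and 0.0247 without PEA2 replicate 1. The gene SYNE1 overlaps ESR1 on the opposite strand, and its level was 5.81 ± 0.54 log2 CPM in PEA1 and 1.23 ± 0.48 in PEA2 (SD, n = 3), opposite in direction to ESR1. The libraries kept strand, but the strand setting of the read counting is not given in the sources used here.

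**Figure D1:**
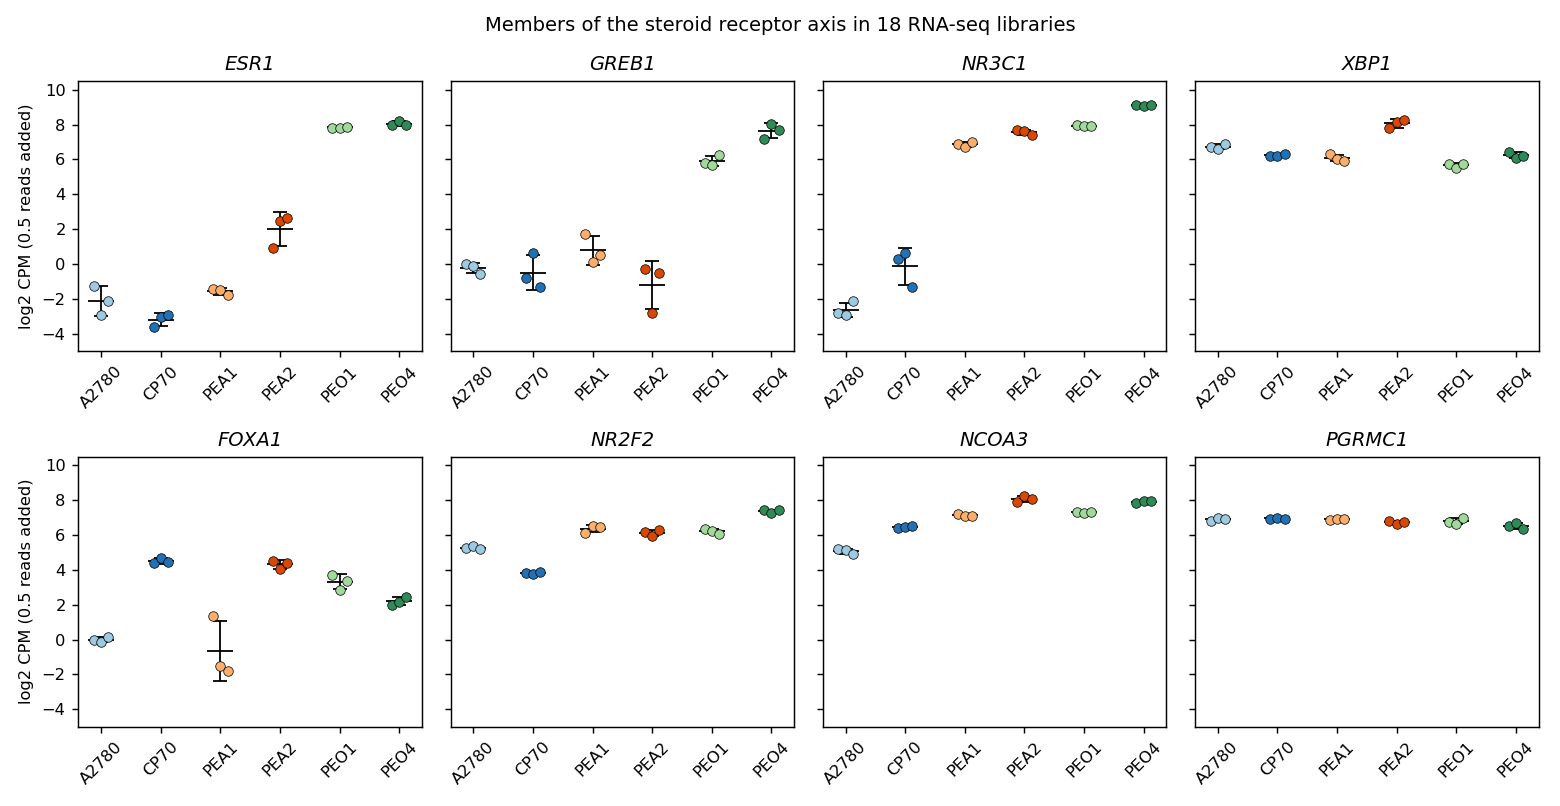
Log2 CPM (0.5 reads added, not divided by length) of the 8 measured genes in each of the 18 libraries, by cell line. Points are libraries, horizontal lines are means and bars are SDs (n = 3). ESR1 sits near 8 in PEO1 and PEO4, at 0.90 to 2.63 in PEA2 and below 0 in the other lines, whereas PGRMC1 stays between 6.35 and 7.01 in all libraries.

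GREB1 (ENSG00000196208, chr2:11622467-11782914, plus strand) encodes a chromatin-bound cofactor of estrogen receptor alpha and is itself one of the genes that estrogen induces most directly. GREB1 is shown with sequence because it was the 1 gene of the 8 with a full palindromic estrogen response element (GGTCANNNTGACC, where N is any base) within 10000 bases of the start of its canonical transcript on either side. The first match lies 9439 bases before that start, at chr2:11664718-11664746, and the second 1505 bases before it, at chr2:11672652-11672680 (GRCh37, plus strand, element in capitals). The canonical start is position 11674171, and both matches are inside the span annotated for the gene, which begins further upstream:
GREB1 distal element: tctcaaaaGGTCATCATGACCttattgtc
GREB1 proximal element: ggcaactgGGTCATTCTGACCtagaagca
Apart from the free bases N, the pattern reads the same on both strands. It occurred in the same window of 238 of 12543 genes with a canonical start (1.9%), and in 1 of 13 other estrogen receptor target genes, SIAH2. A looser glucocorticoid response element (GNACANNNTGTNC) was present around 3 of the 8 genes (FOXA1, GREB1 and XBP1), 7 of 13 glucocorticoid receptor target genes (53.8%), 4 of 13 estrogen receptor target genes (30.8%) and 22.1% of all genes. A match to these letters is a description of the sequence and not a measured binding site.

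GREB1 RNA was abundant only in the PEO pair among the 6 lines. PEO1 gave log2 CPM of 5.82, 5.66 and 6.24 (173, 141 and 500 reads). PEO4 gave 7.18, 8.05 and 7.70 (419, 794 and 512 reads). Every PEO4 library was above every PEO1 library, and GREB1 rose in PEO4 by 1.74 on the log2 scale (SE 0.58, 3.33-fold, FDR = 0.0212). In the shared fit of all lines, that call was lost when some single libraries were left out. The FDR was 0.0565 without PEO1 replicate 1, 0.0683 without PEO1 replicate 2, 0.0839 without PEO4 replicate 2 and 0.0563 without PEO4 replicate 3. The call was kept in 21 of 25 alternatives, with an FDR as low as 9.41e-08. Many of these alternatives leave out a library of another line. That alters the shared spread but cannot alter the log2FC of the PEO pair, so the tally is no measure of robustness. The log2FC lay between 1.53 and 1.97 over all alternatives. The shared fit estimates 1 spread per gene. The SD of GREB1 was 0.30 in PEO1, 0.44 in PEO4 and 0.29 in A2780 (log2 CPM, n = 3). It was 1.02 in CP70, 0.84 in PEA1 and 1.37 in PEA2. Outside the PEO pair GREB1 was close to the floor. The A2780 libraries held 3, 3 and 1 reads, CP70 held 3, 6 and 1, PEA1 held 4, 1 and 2, and PEA2 held 1, 0 and 1. The PEA pair nevertheless passed the test, with a log2FC of -2.0 (SE 0.58, FDR = 0.00564), on no more than 4 reads in any library. Over the pooled libraries, 2 reads in PEA2 against 7 in PEA1 gave a level ratio of 0.171 with an exact 95% interval of 0.0174 to 0.9, which covers counting error only. Without PEA2 replicate 2, the library with 0 reads, the log2FC was -1.21 and the FDR 0.0513, and with voom weights the FDR was 0.0704. Between A2780 and CP70 the log2FC was -0.26 (SE 0.58, FDR = 0.76).

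NR3C1 (ENSG00000113580, chr5:142657496-142815077, minus strand) rose in the PEO pair. PEO1 libraries gave 7.95, 7.91 and 7.93 log2 CPM, and PEO4 libraries gave 9.14, 9.07 and 9.11. All PEO4 values lay above all PEO1 values, a log2FC of 1.18 (SE 0.33, 2.26-fold, FDR = 0.00629). PEA1 gave 6.87, 6.73 and 7.01 and PEA2 gave 7.69, 7.61 and 7.41. The PEA ranges did not overlap either, but the log2FC of 0.70 (SE 0.33) missed the threshold with an FDR of 0.0686. It passed with the PEA pair fitted alone (FDR = 0.00067), with voom weights (FDR = 2.29e-05), with 2 reads added (FDR = 0.0114), and without CP70 replicate 2 or replicate 3 (FDR = 0.037 and 0.00193).

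The A2780 pair hardly held any glucocorticoid receptor RNA. A2780 had 0 NR3C1 reads in all libraries and CP70 had 7, 6 and 1. The fitted log2FC of 2.51 (SE 0.33, FDR = 2.67e-06) passed the test, and all 25 alternatives kept the call (FDR at most 0.00417). Its size depends on the reads added to the zeros of A2780, and was 1.03 with 2 reads added. Against a level of 3 reads in A2780, CP70 was at least 0.959 times as high, a bound that gives no size for the rise. From lowest to highest, the NR3C1 means ran A2780 (-2.65 ± 0.43), CP70 (-0.14 ± 1.05), PEA1 (6.87 ± 0.14), PEA2 (7.57 ± 0.14), PEO1 (7.93 ± 0.02) and PEO4 (9.11 ± 0.04; SD, n = 3). No line overlapped its neighbour in this order, but A2780 and CP70 were both close to the floor. The order of those lines rests on at most 7 reads in any library. Of the 3 genes whose 6 line means were most like those of NR3C1, among 12820 genes, PLEKHA7 had a Pearson r of 0.9972 and SHB one of 0.9954. For ESR1 the 3 genes were SRPX2 (r = 0.9972), TTC22 (r = 0.9958) and NACAD (r = 0.9953). These correlations describe 6 line means taken from the same libraries, several of them at the floor.

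XBP1 (ENSG00000100219, chr22:29190543-29196585, minus strand) encodes a transcription factor that is both an estrogen-induced gene and the effector of the IRE1 branch of the unfolded protein response. Its largest change was in the PEA pair. PEA1 gave 6.29, 6.03 and 5.91 log2 CPM and PEA2 gave 7.80, 8.15 and 8.25, a rise of 1.99 (SE 0.13, 3.97-fold, FDR = 9.45e-11). XBP1 also rose in the PEO pair, from 5.74, 5.51 and 5.71 to 6.44, 6.10 and 6.17, by 0.58 (SE 0.13, 1.5-fold, FDR = 0.00117). It fell by 0.49 on the log2 scale (SE 0.13, FDR = 0.00521) in the A2780 pair, from 6.72, 6.58 and 6.90 to 6.22, 6.21 and 6.30. The sensitive and resistant ranges stayed apart in all 3 pairs, with the A2780 pair of opposite sign. By level, PEO1 was lowest and PEA2 highest, and the ranges of PEA1, PEO4 and CP70 overlapped between them.

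FOXA1 (ENSG00000129514, chr14:38058757-38065264, minus strand) went from the floor to a clear signal in 2 of the resistant lines. A2780 held 3, 3 and 2 reads and CP70 128, 110 and 84, at log2 CPM of 4.40, 4.71 and 4.47. FOXA1 rose in CP70 (log2FC 4.53, SE 0.54, FDR = 8.41e-07), and the pooled libraries gave a 27.6-fold higher level with an exact 95% interval of 13.8 to 64.5 for counting error. The log2FC was 3.05 with quantile normalization (FDR = 0.00031) and 3.98 with 2 reads added. PEA1 held 3, 0 and 0 reads and PEA2 43, 57 and 45, at 4.54, 4.05 and 4.38. This rise (log2FC 4.97, SE 0.54, FDR = 1.31e-07) was 29-fold over the pooled libraries, with an exact interval of 9.72 to 142. The fitted log2FC was 5.96 without PEA1 replicate 1, the 1 PEA1 library with FOXA1 reads, and 3.51 with 2 reads added. FOXA1 went the other way in the PEO pair: PEO1 gave 3.72, 2.87 and 3.39 (40, 20 and 69 reads) and PEO4 gave 1.99, 2.17 and 2.45 (11, 13 and 13 reads). The ranges did not overlap, but the log2FC of -1.12 (SE 0.54) had an FDR of 0.104. It passed in 5 of 25 alternatives, including the PEO pair fitted alone (FDR = 0.00499) and the fit without PEA1 replicate 1 (FDR = 0.00436). The highest FOXA1 levels were thus in CP70 and PEA2, whose ranges overlapped, and ESR1 reads were 0 in one and at most 19 in the other.

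NR2F2 (ENSG00000185551, chr15:96869167-96883492, plus strand) encodes the orphan nuclear receptor COUP-TFII. It fell in CP70, where the libraries gave 3.81, 3.79 and 3.87 against 5.26, 5.39 and 5.20 in A2780 (log2FC -1.46, SE 0.12, FDR = 5.97e-09), a level 2.75-fold lower. It rose in PEO4, with 7.42, 7.28 and 7.43 against 6.37, 6.24 and 6.09 in PEO1 (log2FC 1.14, SE 0.12, 2.21-fold, FDR = 3.24e-07). PEA1 (6.13, 6.52 and 6.45) and PEA2 (6.16, 5.92 and 6.29) overlapped, with a log2FC of -0.24 (SE 0.12, FDR = 0.0968). That value passed without PEA1 replicate 1 (FDR = 0.0197), without PEA2 replicate 3 (FDR = 0.0455) and with quantile normalization (FDR = 0.0129).

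NCOA3 (ENSG00000124151, chr20:46130631-46285621, plus strand), the steroid receptor coactivator known as SRC-3 or AIB1, was the 1 gene of the 8 that rose at an FDR below 0.05 in every pair. The libraries gave 5.18, 5.13 and 4.89 in A2780 and 6.41, 6.49 and 6.55 in CP70, a log2FC of 1.42 (SE 0.10, 2.67-fold, FDR = 2.28e-10). In the PEA pair the values were 7.21, 7.11 and 7.09 against 7.88, 8.25 and 8.10, a log2FC of 0.94 (SE 0.10, 1.92-fold, FDR = 6.7e-08). In the PEO pair they were 7.31, 7.28 and 7.32 against 7.87, 7.94 and 7.97, a log2FC of 0.62 (SE 0.10, 1.54-fold, FDR = 3.02e-05). In each pair all 3 resistant libraries lay above all 3 sensitive libraries, and none of the 25 alternatives changed these calls. Of all genes, 205 (1.59%) rose at an FDR below 0.05 in every pair. NR3C1 also had a positive log2FC in every pair, but it was near the floor in the A2780 pair. Its FDR was 0.0686 in the PEA pair. The size of the NCOA3 rise differed between the pairs (moderated F test, FDR = 0.000135).

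PGRMC1 (ENSG00000101856, chrX:118370208-118378429, plus strand), a heme-binding membrane protein first described as a progesterone-binding component, was the steadiest of the 8 genes. All line means lay between 6.52 ± 0.19 (PEO4) and 6.95 ± 0.04 (CP70; SD, n = 3), and each line overlapped its neighbour in the order of levels. The log2FC was 0.04 (SE 0.10, FDR = 0.818) in the A2780 pair and -0.16 (SE 0.10, FDR = 0.191) in the PEA pair. PGRMC1 fell by 0.28 (SE 0.10, FDR = 0.0376) in the PEO pair, although the ranges of PEO1 (6.75, 6.64 and 7.01) and PEO4 (6.51, 6.72 and 6.35) overlapped. Leaving out PEO1 replicate 1 or 3, or PEO4 replicate 1 or 3, ended that call (FDR = 0.0533 to 0.218). It was also lost with the PEO pair fitted alone (FDR = 0.0604), with quantile normalization (FDR = 0.0603) and without the variance trend (FDR = 0.0645).

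**Figure D2:**
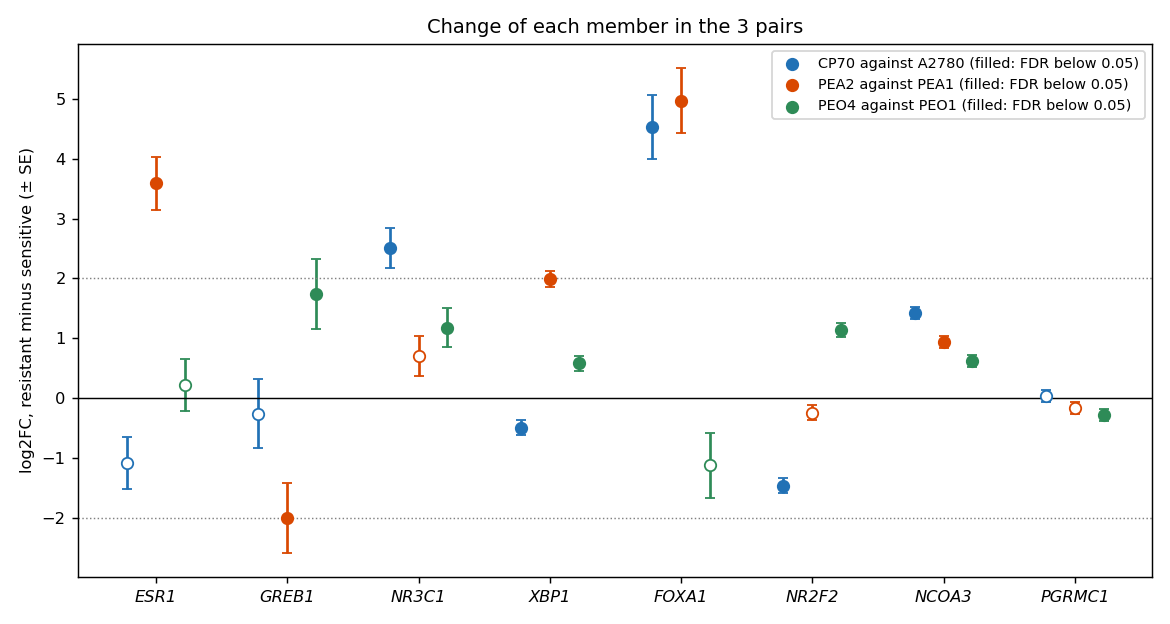
Log2FC (resistant minus sensitive line) of each gene in the 3 pairs, with bars for the SE of the shared limma fit of 18 libraries and filled points where the FDR was below 0.05. Dotted lines mark a log2FC of 2 in each direction. NCOA3 is the 1 gene above 0 with filled points in all pairs, and FOXA1 in CP70 and PEA2 has the largest values (4.53 and 4.97).

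Counted over the 8 genes, 3 rose and 2 fell in the A2780 pair, beside 22.2% and 17.7% of all genes. The PEA pair had 4 rises and 1 fall, beside 32.5% and 29.4%. The PEO pair had 5 rises and 1 fall, beside 19.6% and 21.9%. The threshold of |log2FC| above 2 with an FDR below 0.05 was passed by 2 genes in the A2780 pair (FOXA1 and NR3C1, all genes 9.06%), by 2 in the PEA pair (FOXA1 and ESR1, all genes 14.1%) and by 0 in the PEO pair (all genes 6.22%). The median log2FC of the 8 genes was -0.11, 0.82 and 0.60 in the A2780, PEA and PEO pairs, beside -0.02, 0.01 and -0.02 for all genes. With 8 genes of which several sit at the floor, these counts describe the genes and carry no test.

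A linear model over all pairs, with the pair and the sensitivity as terms, called 3 of the 8 genes higher in the resistant lines (all genes 12.5%) and 0 lower (all genes 11.6%). They were NCOA3 (log2FC 0.99, SE 0.10, FDR = 5.63e-06), NR3C1 (1.46, SE 0.27, FDR = 0.0013) and FOXA1 (2.79, SE 0.74, FDR = 0.0128), and FOXA1 alone was past 4-fold (all genes 3.56%). The NR3C1 and FOXA1 values average unlike pairs: the NR3C1 value draws on the A2780 pair at the floor, and the FOXA1 value draws on 2 rises and a log2FC of -1.12. The FOXA1 call was lost with voom weights (log2FC 1.91, FDR = 0.067). ESR1 had a log2FC of 0.91 (SE 0.55, FDR = 0.233) and XBP1 one of 0.69 (SE 0.26, FDR = 0.0584). With the 3 pair differences as the replicates, which treats each pair as 1 observation, none of the 8 genes passed in limma, nor did any of the 12853 genes, of which 395 had an unadjusted p below 0.05. The log2FC differed between the pairs for 7 of the 8 genes, PGRMC1 being the exception (FDR = 0.149), and 75.3% of all genes differed in the same way.

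Among further receptors of steroids and their relatives, ESRRA and GPER1 are described. ESRRA, an orphan receptor related to the estrogen receptors, rose in PEA2 from 3.10 ± 0.40 to 4.97 ± 0.28 log2 CPM (SD, n = 3; log2FC 1.87, FDR = 3.1e-07). Its log2FC was 0.28 in the A2780 pair (FDR = 0.322) and -0.33 in the PEO pair (FDR = 0.247). GPER1, the membrane estrogen receptor gene, passed in no pair (FDR = 0.156 to 0.9) and held at most 51 reads in any library.

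Of 21 known estrogen receptor target genes chosen beside the 9 genes, 13 were measured. In the PEO pair, where ESR1 was abundant in both lines, 5 rose (38.5%, beside 19.6% of all genes) and 3 fell (23.1%, beside 21.9%), with a median log2FC of 0.66. The rises were RARA, the retinoic acid receptor alpha gene (2.10, SE 0.19, FDR = 2.44e-08), the potassium channel gene KCNK5 (1.94, SE 0.35, FDR = 0.000133), the scaffold gene SLC9A3R1 (1.80), PDZK1 (1.78) and the cathepsin D gene CTSD (0.79). The falls were AREG, which encodes the growth factor amphiregulin (-3.30, SE 0.70, FDR = 0.000769), the ubiquitin ligase gene SIAH2 (-0.78) and CCND1, which encodes cyclin D1 (-0.54). SLC9A3R1, PDZK1, CTSD, SIAH2 and CCND1 were named here after their values were seen, to complete the count.

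Among the same genes in the PEA pair, 7 of 13 targets rose (53.8%, beside 32.5% of all genes) and 3 fell (23.1%, beside 29.4%), with a median of 0.44. AGR2, a secretory pathway gene, went from 0 reads in all PEA1 libraries to between 151 and 352 reads in PEA2, at least 45.2-fold higher (log2FC 8.09, FDR = 2.2e-09). AREG rose by 7.75 on the log2 scale (SE 0.70, FDR = 1.07e-08) from at most 4 reads in PEA1. CA12, a carbonic anhydrase gene, fell from 9.18 ± 0.12 to 3.27 ± 0.30 (SD, n = 3; log2FC -5.91, FDR = 8.19e-13). The A2780 pair had ESR1 at the floor, and 5 targets rose (38.5%, beside 22.2% of all genes) and 1 fell (7.69%, beside 17.7%), with a median of 0.33. PDZK1 rose there from 1.52 ± 0.25 to 6.66 ± 0.07 (log2FC 5.14, SE 0.28, FDR = 5.46e-12). This rise came with no ESR1 reads in CP70.

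**Figure D3:**
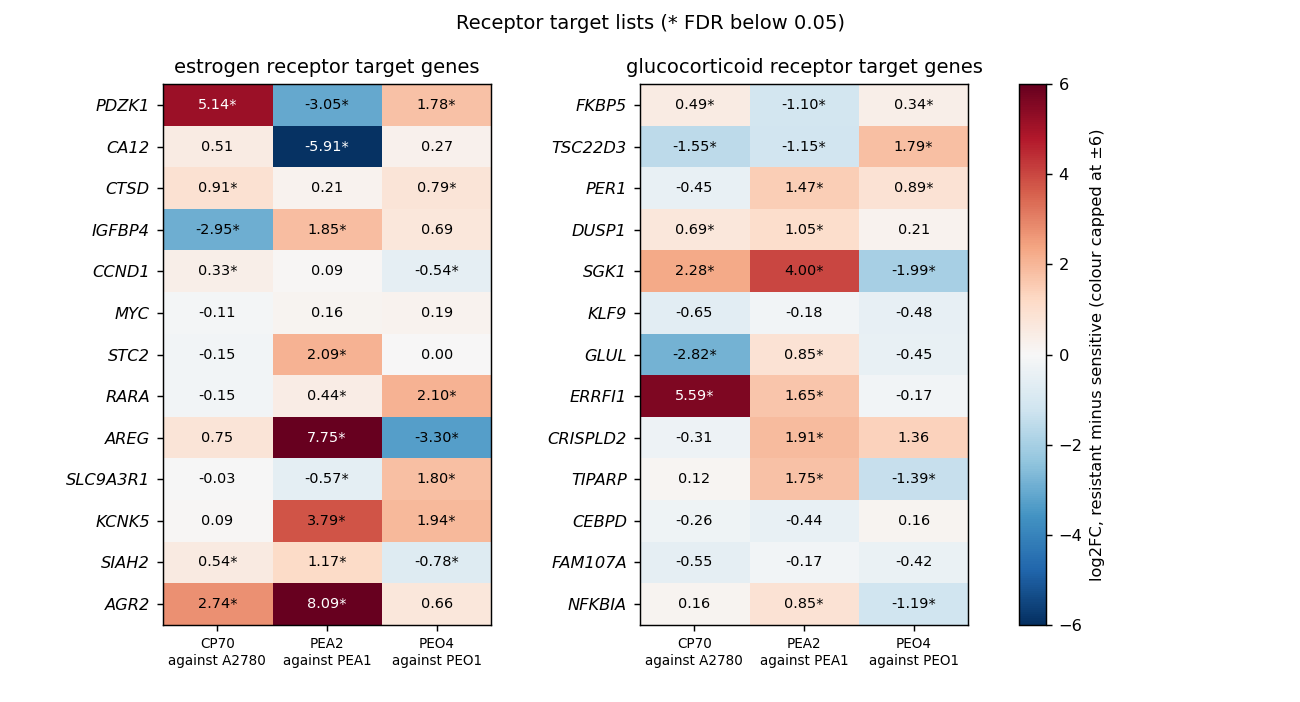
Log2FC (resistant minus sensitive line) in each pair of the 13 measured estrogen receptor target genes (left) and the 13 measured glucocorticoid receptor target genes (right); red is higher and blue is lower in the resistant line, colours are capped at 6 and an asterisk marks an FDR below 0.05. Many rows change colour between the pairs. PDZK1, for example, reads 5.14, -3.05 and 1.78.

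Of 15 glucocorticoid receptor target genes, 13 were measured. NR3C1 rose in the PEO pair, where 3 targets rose and 3 fell, with a median log2FC of -0.17. Each count is 23.1% of the list, close to the 19.6% and 21.9% of all genes. The rises were FKBP5 (0.34), PER1 (0.89) and TSC22D3 (1.79, on 1 to 5 reads per PEO1 library and 3 to 8 per PEO4 library), all chosen for naming after their values were seen. SGK1, the serum and glucocorticoid regulated kinase gene, fell from 4.6 ± 0.26 to 2.62 ± 0.33 (SD, n = 3; log2FC -1.99, FDR = 0.00025). TIPARP (-1.39, FDR = 5.24e-07) and NFKBIA (-1.19, FDR = 1.87e-07), which encodes the inhibitor of NF-kappa-B, fell with it.

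SGK1 moved the other way in the PEA pair, from 1.99 ± 0.29 to 5.99 ± 0.17 (log2FC 4.0, SE 0.38, FDR = 1.78e-08), where 8 of the 13 targets rose (61.5%, all genes 32.5%) and 2 fell (15.4%, all genes 29.4%) with a median of 0.85. Between A2780 and CP70 4 rose (30.8%, all genes 22.2%) and 2 fell (15.4%, all genes 17.7%), with a median of -0.26. ERRFI1, which encodes an inhibitor of the EGF receptor, rose in CP70 from 3.81 ± 0.39 to 9.40 ± 0.06 (log2FC 5.59, SE 0.14, FDR = 5.35e-17), and TSC22D3, which encodes the glucocorticoid-induced leucine zipper, fell by 1.55 (FDR = 0.00089). FKBP5 was measured at 7.29 ± 0.11 in A2780, where NR3C1 had 0 reads, and at 4.62 ± 0.21 in PEO4, where NR3C1 was highest. Between A2780 and PEO4, FKBP5 was thus lower where NR3C1 was higher. Within the pairs, FKBP5 had a log2FC of 0.49 in CP70 (FDR = 0.00699), -1.10 in PEA2 (FDR = 7.51e-07) and 0.34 in PEO4 (FDR = 0.0477). FKBP5 was named after its values were seen, and a link of its level to NR3C1 was not tested.

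All 15 receptor coregulators and 8 receptor chaperones chosen were measured. Among coregulators, 5 rose and 2 fell in the A2780 pair, which is 33.3% and 13.3% of the list beside 22.2% and 17.7% of all genes. In the PEA pair 6 rose and 4 fell (40% and 26.7%, all genes 32.5% and 29.4%), and in the PEO pair 5 rose and 1 fell (33.3% and 6.67%, all genes 19.6% and 21.9%). NCOA2, a paralogue of NCOA3, rose in PEO4 (log2FC 1.03, FDR = 1.63e-07). NCOA7 rose in CP70 by 3.17 (FDR = 8.83e-12). In PEA2 the acetyltransferase gene EP300 rose by 1.40 (FDR = 4.95e-09), whereas its paralogue CREBBP fell by 1.23 (FDR = 1.24e-08) and PELP1 fell by 1.08 (FDR = 5e-07). Among chaperones, which hold unliganded receptors in a binding-ready state, 2 rose (25%) and 0 fell in the A2780 pair, 1 rose (12.5%) and 5 fell (62.5%) in the PEA pair, and 2 rose and 2 fell (25% each) in the PEO pair. The rises in the A2780 pair and both counts in the PEO pair are near the share of all genes. STUB1, the ubiquitin ligase gene that works with these chaperones, in PEA2 fell by 2.70 (FDR = 1.32e-09), and HSP90AB1 rose in PEO4 by 1.67 (FDR = 1.95e-09).

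Among 10 of 12 pioneer and partner factors, 3 rose (30%) and 2 fell (20%) in the A2780 pair, beside 22.2% and 17.7% of all genes. In the PEA pair 5 rose (50%) and 2 fell (20%), beside 32.5% and 29.4% of all genes. In the PEO pair 4 rose (40%) and 1 fell (10%), beside 19.6% and 21.9% of all genes. These counts include genes at the floor in both lines of a pair. GATA2, counted as a rise in the PEO pair, had 0 reads in every PEO1 library and at most 2 in PEO4. NR2F1, counted as a fall in the PEA pair, had at most 2 reads in PEA1 and 0 in PEA2. GRHL2, an epithelial transcription factor gene, went from 0 reads in PEA1 to between 80 and 178 in PEA2, at least 22.6-fold higher, and GATA2 rose at least 5.12-fold. GATA3, which accompanies ESR1 in breast epithelium, rose in PEO4 from 2.53 ± 0.44 to 4.54 ± 0.21 (log2FC 2.01, FDR = 0.000839), as did TFAP2A (1.86, FDR = 0.000417) and RUNX1 (1.44, FDR = 0.0382). NR2F1, the paralogue of NR2F2, fell in CP70 with it, from 8.07 ± 0.16 to 5.44 ± 0.11 (log2FC -2.63, FDR = 0.000154).

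The unfolded protein response list, 13 genes that include XBP1 targets, held 8 rises (61.5%, all genes 32.5%) and 1 fall (7.69%, all genes 29.4%) in the PEA pair, with a median log2FC of 0.30. ERN1, which encodes the IRE1 kinase that splices XBP1 RNA, rose by 2.72 (SE 0.24, FDR = 5.89e-09), SDF2L1 by 2.37 (FDR = 2.98e-06) and EDEM1 by 2.13 (FDR = 8.97e-11). Splicing of XBP1 cannot be read from a count per gene. In the A2780 pair, where XBP1 fell, 2 of the 13 rose (15.4%, all genes 22.2%) and 4 fell (30.8%, all genes 17.7%), among them HERPUD1 (-1.19, FDR = 7.42e-07) and DNAJC3 (-1.04, FDR = 1.13e-06). PEO4 against PEO1 had 2 rises and 2 falls, 15.4% each and below the share of all genes.

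Beside PGRMC1, 6 further genes listed as progesterone membrane components or their relatives were measured. None rose and 3 fell (50%, beside 21.9% of all genes) in the PEO pair, with a median of -1.30: PAQR5 (-2.15, FDR = 5.21e-05), PAQR7 (-2.06, FDR = 4.25e-07) and PAQR3 (-1.84, FDR = 6.19e-08), which are members of the progestin and adipoQ receptor family. PEA2 against PEA1 had 1 rise (PAQR3, 1.83, FDR = 2.43e-08) and 2 falls (16.7% and 33.3%, all genes 32.5% and 29.4%), with PAQR8 going from 7.24 ± 0.06 to 2.11 ± 0.33 (SD, n = 3; log2FC -5.13, FDR = 9.26e-10). For CP70 against A2780 2 rose (33.3%) and 1 fell (16.7%), beside 22.2% and 17.7% of all genes, and PAQR7 rose by 2.37 (FDR = 4.2e-08).

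Of 24 genes of steroid synthesis and conversion, 12 were measured. In the A2780 pair 3 rose (25%) and 5 fell (41.7%), in the PEA pair 6 rose (50%) and 3 fell (25%), and in the PEO pair 2 rose and 2 fell (16.7% each), beside the shares of all genes given above. CYP1B1, which hydroxylates estradiol, fell in CP70 from 8.69 ± 0.10 to 3.62 ± 0.19 (log2FC -5.07, SE 0.17, FDR = 3.24e-15). It also fell in PEA2, from 8.34 ± 0.12 to 1.34 ± 0.35 (log2FC -6.99, SE 0.17, FDR = 5.21e-17), and rose in PEO4 from 4.57 ± 0.04 to 5.79 ± 0.31 (SD, n = 3; log2FC 1.22, FDR = 7.4e-06). HSD17B4, which oxidises estradiol to estrone in peroxisomes, fell by 1.19 in CP70 (FDR = 2.38e-08) and rose in PEA2 by 2.60 (FDR = 1.66e-13).

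**Figure D4:**
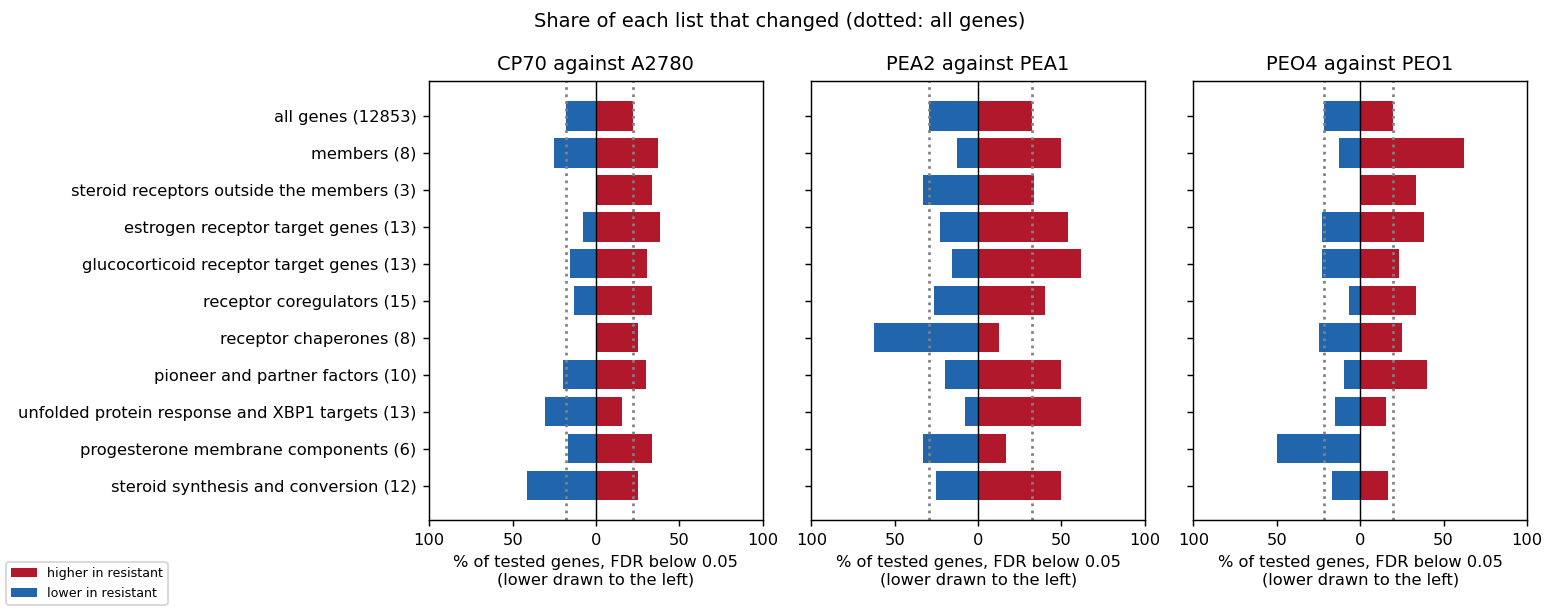
Percent of the measured genes of each list that were higher (red, right) or lower (blue, left) in the resistant line at an FDR below 0.05, by pair, with the number of measured genes in brackets and dotted lines at the percentages of all 12853 genes. In the PEA pair, whose background is the highest (32.5% and 29.4%), 5 of 8 chaperones fell and 8 of 13 unfolded protein response genes rose.

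Markers of cell type also differed within the pairs. In the PEA pair the summed carcinoma markers were at most 590 CPM in PEA1 and at least 3100 in PEA2. The keratin genes KRT7 (log2FC 9.23), KRT8 (2.91) and KRT18 (2.49) and the epithelial adhesion gene EPCAM (4.6, FDR = 4.42e-14) rose in PEA2, whereas PAX8, a lineage factor of Müllerian epithelium, was at 8.35 ± 0.25 in PEA1 and 8.33 ± 0.17 in PEA2 (SD, n = 3; log2FC -0.02, FDR = 0.957). WT1 did not pass either (0.26, FDR = 0.529). The sum of 4 stromal markers was 366 to 447 CPM in PEA1 and 3.45 to 6.40 in PEA2. In PEA1 that sum was COL1A1 alone, a collagen gene that fell by 6.67 on the log2 scale in PEA2 (FDR = 9.02e-12), while COL1A2, DCN and LUM had 0 reads in every PEA1 library and DCN and LUM had 0 in PEA2 too. PTPRC, the leukocyte marker CD45, was at 20.1 to 25.1 CPM in PEA2 and 0 in PEA1, and the endothelial cadherin gene CDH5 at 25.3 to 36.1 CPM in PEA2 and 0 in PEA1; the other 4 immune and 2 endothelial markers chosen were not analysed here.

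In the A2780 pair the stromal sum was 6.19 to 12.9 CPM in A2780 and 50.5 to 57.2 in CP70. COL1A2 (log2FC 5.20, FDR = 1.06e-07), LUM (3.86, FDR = 2.63e-05) and DCN (3.37, FDR = 4.96e-05) rose, and COL1A1 did not pass (-0.49, FDR = 0.318). KRT18 (5.84), KRT8 (5.03) and EPCAM (3.77) rose in CP70 as well. In the PEO pair the stromal sum was 3.26 to 7.39 CPM in PEO1 and 14.2 to 17.3 in PEO4. COL1A2 rose (4.30, FDR = 1.94e-06), whereas COL1A1 (0.44, FDR = 0.377), DCN and LUM did not pass. Of the carcinoma markers there, KRT7 fell (-2.44, FDR = 0.000291). WT1 (1.44, FDR = 0.00243) and EPCAM (0.46, FDR = 0.0402) rose, and the others did not pass. The part of these marker differences in the values of ESR1, XBP1, FOXA1, NR2F2, NCOA3 and the lists was not tested.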

How the data were processed

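The authors prepared strand-specific libraries and, per the labels, aligned reads with Bowtie2 to hg19, counted them on known genes with featureCounts and normalized with limma; versions are not given in the sources used here. They deposited log2 CPM values, with 0.5 reads added to each count, for 12853 genes. Whole reads were recovered from 100% of values (within 0.1 reads), which gives the depth; floors cover counting error only.

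Tests used limma 3.58.1 (R 4.3.3, variance trend) on the deposited log2 scale, in 1 fit of 18 libraries with a mean per line, and a moderated F test between pairs. FDR is Benjamini-Hochberg adjusted over all genes; no genes were removed, and all 8 genes also passed a filter on mean log2 value above 0. Alternatives were each pair fitted alone, that filter, quantile normalization, the replicate block, no trend, voom weights on recovered reads, 2 reads added, |log2FC| above 1, pair differences as replicates, and each library left out. The steps were tested on simulated data. A fold against a line with 0 reads in every library is a bound against 3 reads; for FOXA1 and GREB1 lines with 1 to 3 reads, ratios of pooled reads per pooled library carry an exact conditional binomial interval (95%, scipy 1.17.1). Gene spans and elements came from GRCh37 with its lifted GENCODE annotation (12642 identifiers matched, 211 not).

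The 9 genes and all lists were chosen with earlier results of these data known. Named from each list and pair were at most 3 genes with the largest |log2FC| above 1, an FDR below 0.05 and more than 10 reads in every library of 1 line, with exceptions stated. A few genes that the rule names are left unreported, although list counts include them.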

Additional observations from a re-analysis of the deposited data

Results flagged for a closer look

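The change from the sensitive to the resistant line differed between the 3 pairs, by the moderated F test in limma, for 7 of the 8 genes, beside 75.3% of all genes. ESR1 (FDR = 4.88e-06) rose by 3.59 on the log2 scale in the PEA pair and had a log2FC of 0.22 between PEO1 and PEO4, and both lines of the A2780 pair were at the floor. GREB1 (FDR = 0.00166) had -0.26, -2.0 and 1.74 in the A2780, PEA and PEO pairs, the first 2 on at most 6 reads in any library. NR3C1 (FDR = 0.00424) had 2.51, 0.70 and 1.18, and its difference was lost with 2 reads added to each count (FDR = 0.353).

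XBP1 (FDR = 2.13e-09) had -0.49, 1.99 and 0.58 and FOXA1 (FDR = 7.07e-07) had 4.53, 4.97 and -1.12. NR2F2 (FDR = 4.7e-10) had -1.46, -0.24 and 1.14. NCOA3 (FDR = 0.000135) rose in every pair, by 1.42, 0.94 and 0.62. Groups of 3 libraries are too small for a test of single outlying libraries.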

How the results depend on the processing

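Over 25 alternatives per comparison (24 for the F test), 944 of 992 results for single genes kept their direction and side of the threshold, 18 lost the call, 23 gained it and 7 changed sign. Within a pair, leaving out a library of another line cannot change the log2FC, so part of the 944 was fixed in direction beforehand. The counts past |log2FC| above 2 were 1 in the A2780 pair and 1 in the PEA pair with 2 reads added, and 4, 4 and 3 in the A2780, PEA and PEO pairs at |log2FC| above 1. In the linear model this count was 0 with voom weights, and both of its counts were 0 with the 3 pair differences as replicates. Leaving out 1 library gave 5 to 6, 4 to 6 and 4 to 7 of the 8 genes past the FDR in the A2780, PEA and PEO pairs, 3 to 4 in the linear model and 7 to 8 in the F test. Past |log2FC| above 2 it gave 2 to 2, 2 to 4 and 0 to 0, and 1 to 1 in the linear model, with the 4 coming without PEA2 replicate 1. Changes of sign were PGRMC1 in the A2780 pair (-0.01 without A2780 replicate 1, leave-one-out range to 0.07), GREB1 there (0.16 without CP70 replicate 3, range from -0.82), GREB1 in the linear model (1.48 with voom weights, FDR = 0.000683, then 0.01 with 2 reads added, 0.09 without PEA1 replicate 1 and 0.18 without PEA2 replicate 2, range from -0.37) and NR2F2 in the linear model (0.19 with voom weights). The cause of these changes was not tested.

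Deviations of same-numbered libraries from their line means had mean correlations of 0.0942, -0.0307 and 0.0167 in the A2780, PEA and PEO pairs over 6426 genes. Single values ran from -0.184 in the PEA pair to 0.22 in the A2780 pair. They were not set against libraries of different number, so whether the numbers pair the libraries was not tested. With the replicate block the counts past the FDR stayed at 5, 5 and 6, and no call on the 8 genes changed. Quantile normalization moved the median log2FC of all genes in the PEA pair from 0.01 to -0.10. Depth limits ESR1, GREB1 and NR3C1 in A2780 and CP70, FOXA1 in A2780, ESR1, GREB1 and FOXA1 in PEA1, and GREB1 in PEA2, where every library held fewer than 10 reads.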
